A study of Mus musculus with 22 samples.

Results

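The genes described here are 39 genes of the DNA replication machinery of the mouse, taken by symbol from all 24130 genes of each deposited table of expected counts. They comprise 4 licensing genes (Orc1, Orc6, Cdc6, Cdt1), 12 helicase genes (Mcm2 to Mcm7, Mcm10, Cdc45, Gins1 to Gins4), 6 genes for polymerases and primase (Pola1, Pola2, Pold1, Pole, Prim1, Prim2) and 6 for the sliding clamp and its loader (Pcna, Rfc1 to Rfc5). The others are 4 genes of single-strand binding and lagging-strand joining (Rpa1, Rpa2, Fen1, Lig1), 4 of deoxynucleotide supply (Rrm1, Rrm2, Tyms, Tk1) and 3 of entry into S phase (Ccne1, Ccne2, E2f1). All 39 were found, all 39 passed the filter on low counts in every model, and each reached 33.3 in at least 1 library as counts scaled to library size (CPM). They were taken by name, with earlier results of these data known.

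Total RNA was sequenced from OG2 transgenic mouse embryonic fibroblasts at passage P2, on a mixed 129SVJ, C57B6 and CBA background, which were transfected for 2 days and then sampled on numbered days. The OvSvK arm received Oct4 and Sox2, each fused to the viral activation domain VP16, with Klf4 and was sampled on days 0, 1, 2, 3 and 4. The OSK arms received Oct4, Sox2 and Klf4. They were sampled on days 3 and 7 in medium lacking basic fibroblast growth factor (bFGF), lacking vitamin C, or lacking the GSK3 inhibitors CHIR-99021 and LiCl, and on days 0, 1, 3, 5 and 7 with no component named as missing. The GFP arm, transfected with GFP, was sampled on days 1, 3, 5 and 7. Mouse embryonic stem cells (mESC), described in the labels as WT OG2ES, and embryonic fibroblasts (MEF) were 1 library each, both marked as re-analysed data. No group had a replicate (n = 1 throughout), so an error below describes how a difference varied between days or how values departed from a straight line over days. The labels name neither the vector nor the share of cells that took it up, and do not say whether cells of different days came from 1 culture. In such bulk RNA, fewer cycling cells and less replication RNA per cell cannot be told apart.

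As background, replication is prepared in G1, when the origin recognition complex, Cdc6 and Cdt1 load the ring-shaped Mcm2 to Mcm7 helicase onto DNA. Cyclin E with its kinase, and the E2F transcription factors that drive many replication genes, lead the cell into S phase, where Cdc45 and the GINS complex join the ring to form the active helicase. Primase and DNA polymerase alpha start each strand, the Rfc complex loads the Pcna clamp, polymerases delta and epsilon extend the strands, and Fen1 and Lig1 seal the lagging strand. Embryonic stem cells are known for short G1 phases and rapid division, whereas primary fibroblasts slow or stop dividing in culture.

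Totals ran from 7872277 to 20720718 expected counts per library. Of the counts summed over Rpsa and its processed pseudogene, Rpsa-ps10, the pseudogene took 3.32% to 7.78% in OSK days 1 to 7 and GFP (8 libraries), and 0.124% to 0.476% in the other 12, which were OvSvK, OSK day 0 and the omissions. The comparison of OSK with GFP on matched days thus lay within the first set and comparisons among omissions within the second. OvSvK against OSK or GFP and each omission against OSK crossed them, and there the arm cannot be told apart from the set. The OSK slope, which includes day 0, and its difference from the GFP slope crossed the sets as well. OSK day 0 stood apart from the other libraries: genes in the lowest and highest quintile of GC content deviated by -1.53 and 0.99 (log2), and GFP day 1 came next at -1.06 and 0.13. Markers fitted the labelled cells: 8 fibroblast genes summed to between 13678 and 16764 in GFP on the TPM scale, which corrects for length and depth, and 6 stem cell genes reached 1273 TPM on OvSvK day 4 and 1084 TPM on OSK day 7, against at most 1.0 TPM in GFP.

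In sum, RNA of the replication genes was high in both factor arms from day 1 and low in GFP after day 1. The 39 genes summed to 2022, 4119, 3568, 3740 and 4597 TPM on days 0, 1, 2, 3 and 4 of OvSvK. In OSK they summed to 2324, 3678, 3485, 3613 and 4264 TPM on days 0, 1, 3, 5 and 7. In GFP they summed to 3861, 1621, 1483 and 1090 TPM on days 1, 3, 5 and 7. On day 1 the 3 arms therefore lay close together, and from day 3 every OvSvK and OSK library lay above the GFP libraries of days 3, 5 and 7. As a share of all counts, they took 0.379% on day 1 of OSK (95% Wilson interval 0.375% to 0.383%) against 0.413% on day 1 of GFP (0.409% to 0.417%), and 0.443% (0.440% to 0.446%) against 0.0931% (0.0914% to 0.0948%) on day 7. These intervals cover counting error only. OSK day 0 was low in TPM but not on the CPM scale after trimmed-mean (TMM) scaling, where the members summed to 3938 CPM on day 0 and 3997 CPM on day 1, so an increase within OSK between those days depends on the scaling. In OvSvK day 1 was higher on that scale too, at 4239 CPM against 2472 CPM on day 0.

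**Figure D1:**
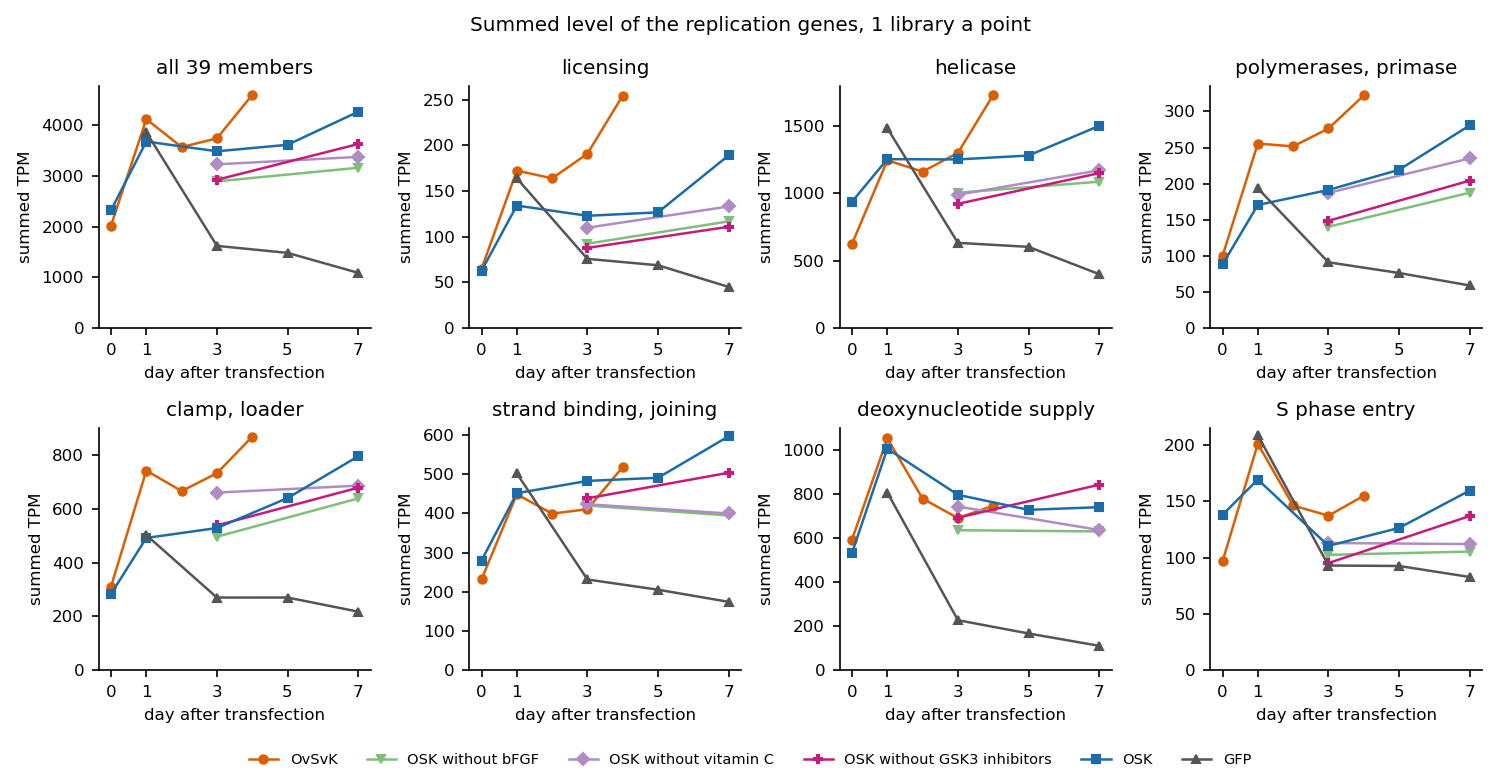
Summed TPM of all 39 genes and of each of the 7 role groups (y axis from 0) against day (x axis), with 1 point per library and 1 line per arm. Each GFP line lies below the OSK line from day 3, and the sum over all members ends at 4264 TPM in OSK and 1090 TPM in GFP on day 7.

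The decline in GFP reached all 7 role groups. Of the 39 genes, 23 fell per day and none rose, read against 2.73% of all 13848 genes tested that fell and 2.07% that rose (adjusted p under 0.05, edgeR quasi-likelihood test). The median slope was -0.375 log2 per day over the members and 0 over all genes. Of the licensing genes 3 of 4 fell, of the helicase genes 7 of 12, of the polymerase and primase genes 4 of 6, of the clamp and loader genes 2 of 6, of the strand-binding and joining genes 3 of 4, of the deoxynucleotide genes 3 of 4, and of the S phase entry genes 1 of 3 (Ccne1). On day 7, 33 members were more than 2-fold lower than on day 1 and none higher (16.6% and 24% of all genes with at least 5 CPM). Most of that difference lay between days 1 and 3. On day 3, 29 members were more than 2-fold lower than on day 1 and none higher, where 11.7% of all genes were lower and 18% higher. Day 5 had none past 2-fold against day 3 (1.05% of all genes lower), and day 7 had 5 lower against day 5 (Mcm5, Mcm6, Mcm10, Cdc6 and Tk1, against 0.893%).

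The steepest slope belonged to Mcm5 (ENSMUSG00000005410, mm10 chromosome 8, 75109569 to 75128439), a subunit of the helicase ring. Its level was 317, 40.8, 29.4 and 10.7 CPM on days 1, 3, 5 and 7 of GFP, and day 7 held 3.4% of the day 1 level. It fell by 0.78 log2 per day (SE 0.10, adjusted p = 0.00205). Mcm10 (ENSMUSG00000026669, chromosome 2, 4989714 to 5012791), which helps to activate the loaded helicase, stood at 49.6, 11.1, 6.84 and 2.64 CPM, with a slope of -0.68 (SE 0.10, adjusted p = 0.00433). The loader Cdc6 (ENSMUSG00000017499, chromosome 11, 98907801 to 98923940) stood at 47.0, 4.98, 5.72 and 2.38 CPM, with a slope of -0.68 (SE 0.11, adjusted p = 0.0104). All 3 were highest on day 1 and lowest on day 7. Thymidine kinase Tk1, which salvages thymidine, stood at 84.5, 11.4, 9.33 and 4.40 CPM (slope -0.68, adjusted p = 0.00989). The ribonucleotide reductase subunits Rrm1 and Rrm2, which make deoxynucleotides, fell by 0.46 and 0.52 per day (adjusted p = 0.00206 and 0.0125), and day 7 held 13.9% and 10.3% of their day 1 levels.

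The 16 genes that were not called in GFP were all 4 GINS genes, Mcm4, Pcna, Rfc1, Rfc2, Rfc3, Pola1, Prim2, Orc6, Rpa2, Tyms, Ccne2 and E2f1. A few of them departed from the common course. E2f1 itself, the transcription factor, stood at 119, 59.0, 59.1 and 68.1 CPM in GFP, with a slope of -0.12 (SE 0.08, adjusted p = 0.381), and day 7 held 57.2% of day 1. Rfc1, the large subunit of the clamp loader, stood at 27.4, 43.9, 48.4 and 45.9 CPM. Pola1, the catalytic subunit of polymerase alpha, stood at 8.67, 15.2, 17.8 and 15.0 CPM. Ccne2, the second cyclin E, stood at 3.82, 3.56, 7.21 and 5.81 CPM. These 3 were the only members above their day 1 level on day 7, and none of them was called. With the GC trend of each library removed, their slopes were 0.04 for Rfc1, -0.08 for Pola1 and -0.08 for Ccne2. Their GC contents are 46.1%, 42.8% and 42.5%, below the median of 49.1% over the members. Genes of the lowest GC quintile deviated by -1.06 (log2) on day 1 and 0.28 on day 7 of GFP. The cause of the courses of these 3 genes was not tested.

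Calls in GFP rest on its first and last libraries. Without GFP day 1, or without GFP day 7, no member was called, and 10 were called without GFP day 5. With the GC trend of each library removed, all 23 genes were still called.

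Binding motifs of E2F factors were looked up because many of these genes moved together. Of the 39 genes, 31 matched the RefSeq promoter table (assembly GRCm38.p6, windows of 300 bases from 250 bases before to 50 bases after a transcription start). The letters searched were TTTCCCGC, TTTGGCGC, TTTCGCGC and TTTGCCGC on both strands, which may overlap one another. They occurred in 12 of the 31 members (38.7%) and in 704 of 27025 genes in the table (2.6%). The CCAAT box occurred in 19 members (61.3%) and 41.1% of all genes, and both kinds of motif together in 8 members (25.8%) and 1.1% of all genes. Genes with and without the E2F letters had similar declines in GFP: the log2 ratio of day 7 to day 1 had a median of -2.54 (range -4.87 to 0.78) in the 12 genes with a motif and -2.39 (range -4.22 to 0.74) in the 19 without, with no test. The starts are those of RefSeq, and they lie within 50 bases of the gene start in the mm10 annotation used for the other coordinates in 21 of the 31 members and up to 539 bases from it in the other 10, so part of a window can lie inside a gene. The 250 bases before the RefSeq start are shown 5′ to 3′ on the gene's strand, with the E2F letters in capitals, for 5 genes whose printed bases lie outside the gene in both annotations. Mcm5 (plus strand, chr8:75109259-75109508) and Mcm6 (minus strand, chr1:128359706-128359955) have motifs and fell in GFP. Pola1 (minus strand, chrX:93632156-93632405) has a motif and was not called, and Mcm10 (minus strand, chr2:5012792-5013041) and Rrm1 (plus strand, chr7:102441445-102441694) fell with none of these letters in their windows.
Mcm5: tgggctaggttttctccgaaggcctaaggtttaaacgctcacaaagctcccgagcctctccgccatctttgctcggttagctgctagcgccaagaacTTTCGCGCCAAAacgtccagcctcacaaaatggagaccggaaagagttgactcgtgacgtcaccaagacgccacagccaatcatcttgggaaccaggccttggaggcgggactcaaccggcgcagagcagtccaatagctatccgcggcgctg
Mcm6: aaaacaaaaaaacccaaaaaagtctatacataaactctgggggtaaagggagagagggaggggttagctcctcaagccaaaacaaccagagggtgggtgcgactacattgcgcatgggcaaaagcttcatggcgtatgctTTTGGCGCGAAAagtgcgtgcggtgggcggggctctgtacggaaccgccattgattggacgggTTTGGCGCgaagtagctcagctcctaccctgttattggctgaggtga
Pola1: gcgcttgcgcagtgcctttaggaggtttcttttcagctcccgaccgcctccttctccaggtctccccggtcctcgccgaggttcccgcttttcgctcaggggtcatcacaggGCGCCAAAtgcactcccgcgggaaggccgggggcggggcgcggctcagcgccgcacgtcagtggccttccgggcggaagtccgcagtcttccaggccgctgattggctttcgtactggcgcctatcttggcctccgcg
Mcm10: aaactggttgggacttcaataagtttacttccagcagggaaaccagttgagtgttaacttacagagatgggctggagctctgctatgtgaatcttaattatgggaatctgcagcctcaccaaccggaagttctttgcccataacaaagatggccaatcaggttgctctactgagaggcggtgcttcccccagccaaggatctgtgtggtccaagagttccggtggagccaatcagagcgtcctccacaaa
Rrm1: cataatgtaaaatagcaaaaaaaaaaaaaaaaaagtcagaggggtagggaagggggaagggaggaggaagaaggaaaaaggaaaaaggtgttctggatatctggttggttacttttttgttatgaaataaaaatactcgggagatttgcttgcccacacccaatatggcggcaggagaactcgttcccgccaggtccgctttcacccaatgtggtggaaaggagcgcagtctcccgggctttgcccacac
In Mcm5 the capitals begin 153 bases before the start and hold 2 overlapping matches that read as an E2F motif on either strand. Mcm6 has such a pair 110 bases before the start and a further match at 47 bases, and in Pola1 the match begins at 138 bases. A match is a description of these letters and does not show that a factor was bound.

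Set against GFP on the same days, OSK cells held more RNA of most replication genes from day 3, and the median ratio was larger on each later day. Over days 1, 3, 5 and 7 together, 10 of 39 genes were higher in OSK and none lower, where 16.8% of all 12680 genes tested were higher and 14% lower. The members' share of 10 in 39 is thus not far above the background, although their median difference was 1.103 log2 against 0.05 over all genes and 36 of 39 were positive. Day by day, 1 member was more than 2-fold higher and 2 lower on day 1 (13.2% and 7.32% of all genes). On day 3, 21 were higher and none lower (16.3% and 12.5%), on day 5, 25 and none (18.9% and 13.3%), and on day 7, 31 and none (22.5% and 19.7%). The median ratio of OSK to GFP over the members was 0.857, 2.03, 2.73 and 4.28 on the 4 days. All 39 genes were above GFP on day 7, and 36 were above it on each of days 3, 5 and 7.

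**Figure D2:**
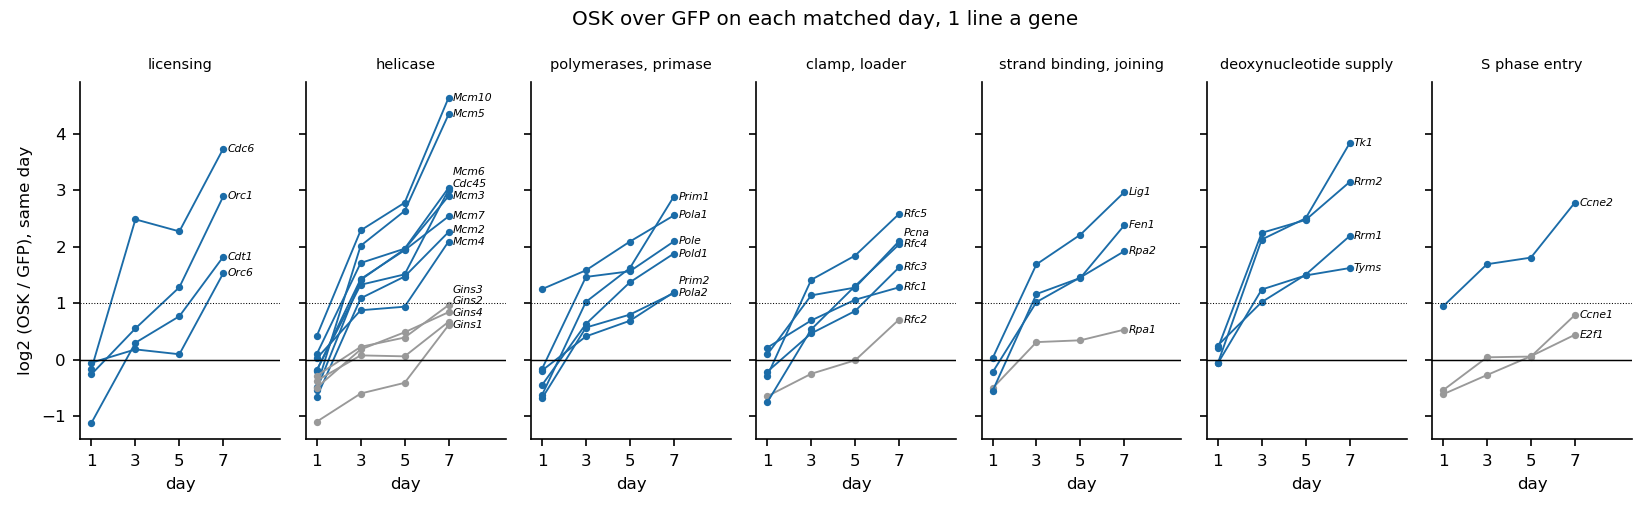
Log2 ratio of OSK to GFP on the same day (y axis) against day (x axis), 1 line per gene, in 7 panels by role, with blue lines for genes past 2-fold (dotted line) on day 7. Of the 39 lines, 31 end above the dotted line, while Rpa1, Rfc2, Ccne1, E2f1 and the 4 GINS genes end below it.

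Among the 10 genes called, Pola1 (ENSMUSG00000006678, chromosome X, 93304767 to 93632155) stood at 20.9, 45.8, 76.5 and 88.8 CPM in OSK, against 8.67, 15.2, 17.8 and 15.0 CPM in GFP. On these 4 days every OSK library lay above every GFP library. The difference was 1.91 log2 (SE 0.26, adjusted p = 0.00607). Ccne2 (ENSMUSG00000028212, chromosome 4, 11191351 to 11204779) stood at 7.51, 11.9, 25.7 and 40.9 CPM in OSK, against 3.82, 3.56, 7.21 and 5.81 CPM in GFP. Over the same days its ranges did not overlap either, at 1.88 (SE 0.34, adjusted p = 0.0133). The gap was narrow, between 7.51 CPM on OSK day 1 and 7.21 CPM on GFP day 5. How many of all genes separate the arms in this way was not counted. Rfc1 stood at 31.8, 71.2, 101 and 112 CPM in OSK, against 27.4, 43.9, 48.4 and 45.9 CPM in GFP. It was above GFP on each day although the ranges overlap, at 0.84 (SE 0.22, adjusted p = 0.0361).

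The other 7 genes called had high levels in OSK throughout and low levels in GFP after day 1. Mcm10 stood at 66.4, 55.2, 48.0 and 69.6 CPM in OSK, against 49.6, 11.1, 6.84 and 2.64 CPM in GFP (2.52, SE 0.71, adjusted p = 0.0455). Rrm2 stood at 335, 247, 238 and 268 CPM in OSK, against 291, 51.9, 42.7 and 30.1 CPM in GFP (2.07, SE 0.52, adjusted p = 0.0335). In both genes GFP day 1 lay within the OSK range, and the later GFP days below it. Lig1, the ligase of the lagging strand, differed by 1.77, Mcm6 by 1.74, Rrm1 by 1.26 and Pcna by 1.18, and the thymidylate synthase Tyms, at an adjusted p of 0.0494, was called as well (adjusted p of the others 0.0411 to 0.0485). Mcm5 stood on day 7 at 221 CPM in OSK against 10.7 CPM in GFP. It was not called over the 4 days (2.19, SE 0.83, adjusted p = 0.0960), and on day 1 it was lower in OSK at 228 CPM than in GFP at 317 CPM.

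Genes with little or no difference from GFP were found in several roles. The fitted differences were -0.36 for Gins1, 0.27 for Gins2, 0.13 for Gins4, 0.35 for Gins3, 0.10 for Ccne1, -0.08 for E2f1, -0.03 for Rfc2 and 0.19 for Rpa1, with adjusted p between 0.303 and 0.929. Their 2-fold limits were not passed on day 7 either. Gins1 (ENSMUSG00000027454, chromosome 2, 150905400 to 150931280) stood at 47.8, 41.1, 50.6 and 66.8 CPM in OSK, against 102, 62.2, 67.2 and 43.6 CPM in GFP. Its values thus crossed, with OSK lower on days 1, 3 and 5 and higher on day 7.

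These counts depend on the days used. Without day 1, 28 members were higher in OSK and none lower. Without day 3 or day 5 only Pola1 was called, and without day 7 only Pola1 and Ccne2. With the GC trend removed 3 were called (Pola1, Lig1 and Ccne2), and with the GC trend removed and day 1 left out 28. The shares of all genes called in these refits are not given, so the counts describe dependence on the fit only. Markers of other cells moved with the comparison. Fibroblast markers summed to 12376, 6880, 4576 and 3841 TPM in OSK on the 4 days, against 14051, 16764, 13678 and 15409 TPM in GFP. Endothelial markers ranged from 8.2 to 111 TPM in OSK, day 0 included, and from 6.0 to 7.1 TPM in GFP, and macrophage markers from 15.9 to 165.8 TPM and from 62.9 to 114 TPM. Their part in the members' values was not tested.

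Changes per day were compared directly between arms, over unlike days. The lines cover days 0 to 4 in OvSvK, days 0 to 7 in OSK and days 1 to 7 in GFP, which has no day 0. The slope was higher in OSK than in GFP for 18 members and lower for none, against 2.85% and 3.38% of all 13848 genes. All 39 differences were positive, with a median of 0.397 log2 per day against -0.008 over all genes. Mcm10 (0.74, SE 0.12, adjusted p = 0.00756) and Mcm5 (0.72, SE 0.12, adjusted p = 0.00732) differed most. In OvSvK 17 members had a higher slope than in GFP and none a lower one (3.39% and 3.91% of all genes), led by Mcm10 and Mcm5, at 1.05 each (adjusted p = 0.00664 and 0.00643). Both comparisons share the GFP libraries, so their likeness is no second observation. In either comparison no member was called without GFP day 1. In OSK against GFP none was called without GFP day 7 either, and in OvSvK against GFP none without OvSvK day 0. The first count was 5 without OSK day 7 and 8 without GFP day 5, and the second 1 without OvSvK day 4 and 11 without GFP day 7.

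Within OSK most members held their level. On the CPM scale 8 rose per day (21.5% of all genes rose) and 1 fell (24%), with a median slope of -0.011 against -0.009. The members' calls are thus close to or below the background. Those that rose were Ccne2 (0.55, SE 0.13, adjusted p = 0.0064), Pola1 (0.52), Rfc1 (0.38), the primase subunit Prim1 (0.25), Gins3 (0.24), Mcm4 (0.21), the origin-binding Orc1 (0.18) and Pcna (0.17), whose slope was -0.13 with the GC trend removed. Their GC contents lay between 42.0% and 47.9%, and OSK day 0 was low in such genes. With the GC trend removed, Ccne2, Pola1, Rfc1 and Gins3 of the 8 were still called (slopes 0.29, 0.28, 0.25 and 0.18), and Ccne1 as well, while without OSK day 0, and so with 1 time point fewer, only Rfc1 was. With the GC trend removed, Mcm4, Orc1, Prim1 and Pcna were no longer called. The slopes of Mcm4 and Orc1 were then 0.06 and 0.09 (edgeR, adjusted p = 0.342 and 0.202). The cause of the slopes was not tested. Pola1 stood at 3.99, 20.9, 45.8, 76.5 and 88.8 CPM on days 0, 1, 3, 5 and 7, higher on each day than on the one before. The gene that fell was Ccne1, the first cyclin E, at 128, 88.0, 36.8, 35.1 and 35.3 CPM (-0.27, SE 0.07, adjusted p = 0.0102). Of the summed TPM of the cyclin E pair, Ccne1 held 99.0% on day 0, 93.9% on day 1, 82.9% on day 3, 64.2% on day 5 and 56.2% on day 7 of OSK. In GFP Ccne1 held 98.0% on day 1 and 83.6% on day 7. The GC content of Ccne1 is 50.6% and that of Ccne2 42.5%. Genes of the lowest GC quintile deviated by -1.53 on day 0 and 0.56 on day 7 of OSK, and by -1.06 on day 1 and 0.28 on day 7 of GFP. The part of GC content in these shares was not tested.

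OvSvK cells had low levels on day 0 and higher ones from day 1. On day 1, 17 members were more than 2-fold above day 0 and none below (14.9% and 10.7% of all genes), with a median ratio of 1.92. By day 4, 19 were above and 1 below (19.8% and 17.6%). The per-day line called 1 gene up (4.49% of all genes) and 1 down (5.81%). Cdt1 (ENSMUSG00000006585, chromosome 8, 122568015 to 122573554), which loads the helicase with Cdc6, stood at 15.8, 35.5, 38.1, 49.2 and 71.0 CPM on days 0 to 4, highest on day 4, with a slope of 0.47 (SE 0.12, adjusted p = 0.0251). Rrm1 (ENSMUSG00000030978, chromosome 7, 102441695 to 102469771) stood at 553, 555, 361, 274 and 269 CPM, with a slope of -0.30 (SE 0.08, adjusted p = 0.0406). Rrm2, its partner, stood at 217, 412, 297, 246 and 275 CPM (slope -0.02, adjusted p = 0.946), so that Rrm1 held 57.8% of the pair's summed TPM on day 0 and 34.4% on day 4. Neither gene was called without OvSvK day 0, day 3 or day 4, and Rrm1 was also lost without OvSvK day 1 or 2, OSK day 5 and GFP day 5 or 7. With OSK day 0 left out 5 members were called. Ccne2 in OvSvK was highest on day 1 and lower after, at 7.71, 42.7, 25, 20.8 and 14.7 CPM, whereas in OSK its highest library was day 7.

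On the days that both were sampled, the members summed to 2472, 4239 and 3289 CPM in OvSvK (days 0, 1 and 3), against 3938, 3997 and 3236 CPM in OSK, so the gap was widest on day 0, when OSK stood apart. Over days 0, 1 and 3 no member was called in edgeR, nor was any of the 12910 genes (0%), while 3 members and 2991 genes had an unadjusted p under 0.05. DESeq2 called 3 members, as did edgeR without day 3. The median difference was -0.263 over the members and -0.015 over all genes, and it was -0.026 against 0.192 on the TPM scale, where the whole distribution shifts. On day 1, 3 members were more than 2-fold higher in OvSvK and none lower (15.8% and 7.66% of all genes). They were Pola1, Ccne2 and Rfc1, at 94.8, 42.7 and 129 CPM in OvSvK, against 20.9, 7.51 and 31.8 CPM in OSK. Their GC contents are 42.8%, 42.5% and 46.1%. Genes of the lowest GC quintile deviated by 0.48 on OvSvK day 1 and -0.43 on OSK day 1. The part of GC content in these differences was not tested, and the pair crossed the library sets. On day 3 no member was higher and 1, Gins3, was lower, at 13.8 CPM in OvSvK against 32.8 CPM in OSK (11.9% and 9.92% of all genes). Against GFP, 3 members were higher in OvSvK and 4 lower on day 1 (25.6% and 16.9%). On day 3, 23 members were higher in OvSvK and 1 lower (22.4% and 17.6%). At the course ends, Pole, the catalytic subunit of polymerase epsilon, was 2-fold higher on OvSvK day 4, at 116 CPM against 50.2 CPM on OSK day 7, and Gins3 and Ccne2 were lower (10.6% and 9.66% of all genes).

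**Figure D3:**
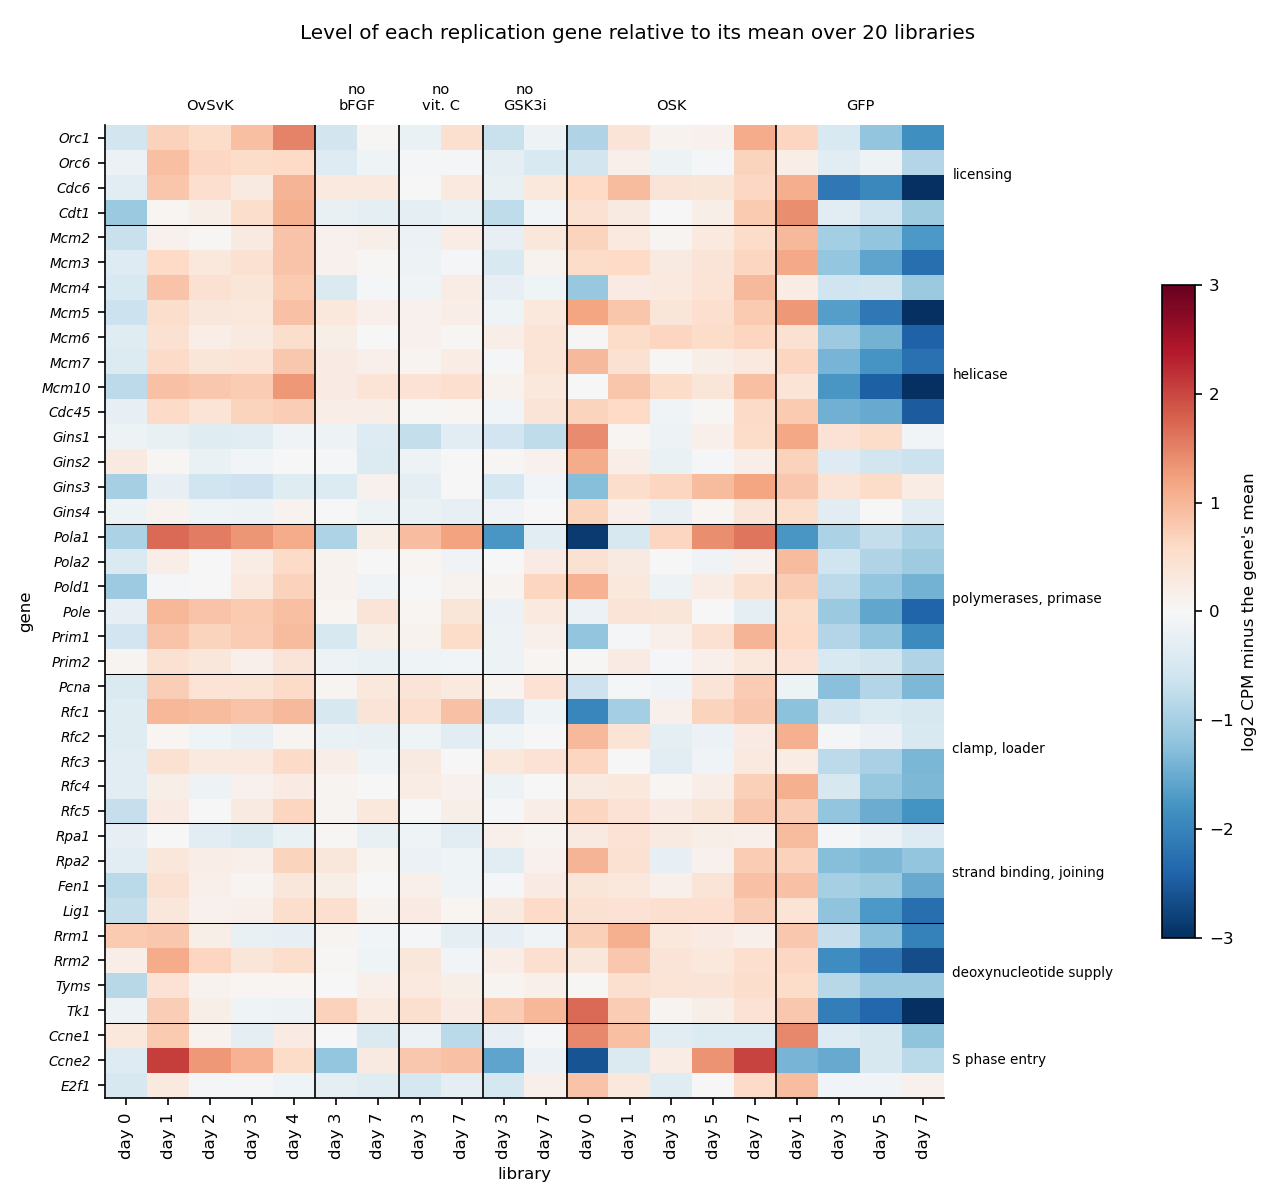
Log2 CPM of each gene (rows, by role) minus its mean over the 20 libraries (columns, by arm and day), on a scale from blue (lower) to red (higher). The GFP columns after day 1 are blue in most rows, and Pola1, Rfc1, Ccne2 and the GINS rows follow patterns of their own.

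A handful of members were lower in OSK cells when bFGF or GSK3 inhibitors were left out, and each comparison with OSK crossed the library sets. Without GSK3 inhibitors 8 members were lower than in OSK and none higher, where 13.3% of all 14191 genes were lower and 9.97% higher. Without bFGF 5 were lower and none higher (7.77% and 4.71% of all genes). The members' shares of 8 and 5 in 39 are thus not far above the background. Without vitamin C none was lower or higher (0.254% and 0.0423% of all genes), while 8 members had an unadjusted p under 0.05, DESeq2 called 1, and edgeR called 6 without OSK day 3. The median differences over the members were -0.348, -0.315 and -0.299, against 0.007, 0.012 and 0.013 over all genes. On day 7, 32, 38 and 37 of the 39 genes lay below OSK without GSK3 inhibitors, without bFGF and without vitamin C, of which 7, 6 and 2 were more than 2-fold lower (15.1%, 8.96% and 3.17% of all genes). On day 3 the split was more even, with 29, 22 and 22 genes below OSK and median differences of -0.209, -0.084 and -0.056 log2, against -0.357, -0.589 and -0.516 on day 7. On that day 3, 3 and 0 members were more than 2-fold lower (9.12%, 8.29% and 1.76% of all genes).

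Pola1 and Ccne2 had the largest differences in both of these omissions. Pola1 stood at 15.3 and 33.0 CPM on days 3 and 7 without bFGF, 55.7 and 67.3 CPM without vitamin C, and 8.70 and 23.3 CPM without GSK3 inhibitors, against 45.8 and 88.8 CPM in OSK. It was lower than OSK on each day without bFGF and without GSK3 inhibitors, by -1.50 (SE 0.26, adjusted p = 0.00968) and -2.12 (SE 0.27, adjusted p = 0.00183). Ccne2 stood at 4.54 and 12.2 CPM without bFGF, 17.7 and 18.5 CPM without vitamin C, and 3.39 and 9.02 CPM without GSK3 inhibitors, against 11.9 and 40.9 CPM in OSK. Its differences were -1.59 without bFGF (SE 0.37, adjusted p = 0.0249) and -2.01 without GSK3 inhibitors (SE 0.39, adjusted p = 0.00721). Mcm4 was lower by -0.86 and -0.82 and Orc1 by -0.88 and -1.03 without bFGF and without GSK3 inhibitors (adjusted p = 0.0169 to 0.0427). Rfc1 (-0.82), Gins1 (-0.86) and Cdt1 (-0.79) were called without GSK3 inhibitors only, which is no test that the omissions differ in them. Most of these calls were lost with the GC trend removed. Without bFGF only Gins3 of the 5 was still called, and Pola1 stood at -0.95 (adjusted p = 0.0864) and Ccne2 at -1.03 (adjusted p = 0.145). Without GSK3 inhibitors Pola1 (-1.43, adjusted p = 0.0265), Cdt1 and Gins3 of the 8 were still called, and Ccne2 stood at -1.29 (adjusted p = 0.0643).

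**Figure D4:**
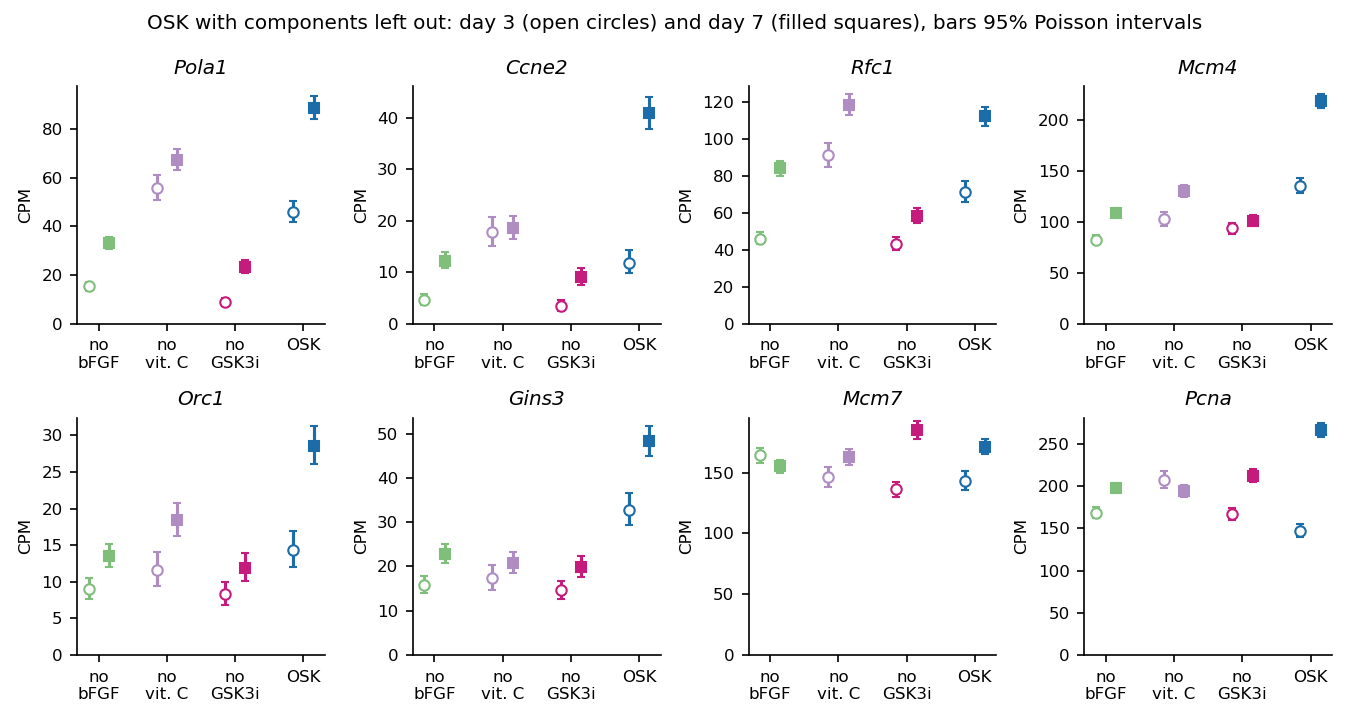
CPM (y axis from 0) of 8 members in OSK without bFGF, without vitamin C and without GSK3 inhibitors, and in OSK, on day 3 (open circles) and day 7 (filled squares), with bars for 95% Poisson intervals that cover counting error only. Pola1 and Ccne2 are lowest without GSK3 inhibitors, while Mcm7 lies at 136 to 185 CPM in all 8 libraries.

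Gins3 (ENSMUSG00000031669, chromosome 8, 95633453 to 95645060) was lower by -1.06 without bFGF (adjusted p = 0.0132) and -1.22 without GSK3 inhibitors (adjusted p = 0.00441), and stood at -1.08 without vitamin C (adjusted p = 0.0721). It followed the library sets in every arm: it lay between 24.6 and 48.2 CPM in the 8 libraries of the first set and between 8.64 and 22.9 CPM in the 12 of the second, with no overlap. It was the 1 member of 39 whose ranges did not overlap, and the same held for 76 of 15035 genes (0.505%). Its part in the omission results therefore cannot be told apart from the set. The same holds for its slope in OSK, which includes day 0, and for its lower level in OvSvK than on OSK day 3 and day 7.

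The omissions were also compared with one another, within the second set. Without GSK3 inhibitors, 3 members were lower than without vitamin C and none higher (9.29% and 4.66% of all genes). They were Pola1 (-2.08, SE 0.27, adjusted p = 0.00172), Ccne2 (-1.74, SE 0.39, adjusted p = 0.0169) and Rfc1 (-1.03, SE 0.20, adjusted p = 0.00826), at 43.2 and 58.2 CPM without GSK3 inhibitors against 91.1 and 118 CPM without vitamin C in the case of Rfc1. Without bFGF, 1 member was lower than without vitamin C (5.01% of all genes) and none higher (2.02%). This was Pola1, at -1.46 (SE 0.26, adjusted p = 0.0132). In neither comparison with vitamin C omission was the share of members called lower above that of all genes. Between the omissions of bFGF and of GSK3 inhibitors no member was called (1.41% of all genes higher, 1.67% lower), with 1 member at an unadjusted p under 0.05. Median GC content of the 3 genes was 42.8%, and genes of the lowest GC quintile deviated by -0.36 and -0.17 without GSK3 inhibitors on days 3 and 7, against 0.38 and 0.50 without vitamin C. With the GC trend removed Rfc1 and Pola1 were still called and Ccne2 was not, and Pola1 was no longer called between the omissions of bFGF and of vitamin C (-0.89, adjusted p = 0.138).

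Calls among the omissions rest on few libraries. In the comparison of GSK3 inhibitor omission with OSK, 0 members were called without its own day 7 library, 4 without its day 3 library and 16 without OSK day 3. In that of bFGF omission with OSK none was called without either of its own libraries, 11 were called without OSK day 3, and 3 without OSK day 7. In that of GSK3 inhibitor with vitamin C omission, 2 were called without the day 3 library of the first, and 1 without the day 7 library of the first or the day 3 library of the second, Pola1 each time. Pola1 was no longer called between the omissions of bFGF and vitamin C without either bFGF library or without vitamin C day 3; with OSK day 3 or day 7 left out 3 members were called there, and with vitamin C day 7 left out 2. Fibroblast markers summed to 6606 and 5656 TPM without GSK3 inhibitors, 10464 and 6475 TPM without bFGF and 6861 and 3962 TPM without vitamin C, against 6880 and 3841 TPM in OSK. Stem cell markers on day 7 summed to 253, 256 and 461 TPM, against 1084 TPM in OSK. The part of these cells in the members' values was not tested.

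Subunits that work in 1 complex were compared per length, in TPM. The 6 ring subunits Mcm2 to Mcm7 lay close together in OSK day 7, between 141 TPM (Mcm2) and 207 TPM (Mcm6), a ratio of 1.47. In GFP day 7 they ranged from 6.99 TPM (Mcm5) to 31.7 TPM (Mcm4), a ratio of 4.53, while in GFP day 1 the ratio was 2.63. On days 1, 3 and 5 of OSK it was 2.24, 2.28 and 1.99, and on days 3 and 5 of GFP 2.19 and 2.48. The arms thus lay closer together before day 7. In OSK day 0, the library that stood apart, it was 7.22. GINS subunits were less even. Gins1 had the highest TPM of the 4 in all 20 libraries, at 258 TPM against 44.6 TPM for the lowest, Gins2, in OSK day 7, and at 172 TPM against 21.9 TPM for Gins2 in GFP day 7. The Rfc subunits spanned a ratio of 1.73 in OSK day 7 and 3.24 in GFP day 7, and of 5.91 in OSK day 1 and 10.83 in GFP day 1. Of their summed TPM Rfc1 held 6.10% on day 1 and 16.0% on day 7 of OSK, and 3.70% and 18.4% on these days of GFP. Prim1, the catalytic primase subunit, and its partner Prim2 stood at 31.0 and 33.4 TPM on day 1 and 70.5 and 37.6 TPM on day 7 of OSK, and at 41.5 and 32.5 TPM on day 1 and 7.98 and 15.05 TPM on day 7 of GFP. Of the pair's summed TPM Prim1 held 48.1%, 56.2%, 57.9% and 65.2% on days 1, 3, 5 and 7 of OSK, and 56.0%, 45.2%, 41.3% and 34.7% on these days of GFP, with no test.

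The members moved together to different degrees. Over the 20 libraries, the correlation of each gene's log2 CPM with the mean of the others was highest for Mcm3 (0.977) and near 0 for Gins1 (-0.011) and Gins3 (-0.012). It was 0.282 for Rfc1, 0.291 for E2f1, 0.368 for Pola1, 0.394 for Ccne2 and 0.403 for Rpa1. Over all 741 pairs the median was 0.65. These values share libraries, depth and scaling and are a description only. GFP day 7 was the lowest library of 28 members, and OSK day 0 of 5. GFP day 1 was the highest library of 14, OSK day 0 of 8, OvSvK day 1 and OSK day 7 of 7 each.

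Genes around the 39 showed which neighbouring functions moved. Against GFP, OSK had 14 higher and 1 lower among 39 further genes of the replication machinery (median 1.054, against 0.05 over all genes, of which 16.8% were higher and 14% lower), and 9 fell per day in GFP while none rose (2.73% and 2.07% of all genes). They included Dscc1 and Atad5 of the alternative clamp loaders (2.61 and 1.74) and the kinase Cdc7 with its partner Dbf4 (1.80 and 1.77), which fire origins. In GFP the steepest were Uhrf1, which maintains DNA methylation behind the fork (-0.77 per day), the helicase Recql4 (-0.72), the firing factor Ticrr (-0.65) and Chtf18 (-0.56). Uhrf1 stood at 212, 211, 195 and 244 CPM in OSK, against 247, 46.4, 24.4 and 9.15 CPM in GFP. Without GSK3 inhibitors 12 of the 39 were lower than in OSK and 2 higher (13.3% and 9.97% of all genes). Without bFGF 8 were lower and none higher (7.77% and 4.71%). Both omission comparisons crossed the library sets. How the calls of these neighbouring genes depend on GC content and on single libraries was not tested.

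Nucleotide supply beyond the members was mixed. Among 17 genes OSK had 5 higher and 3 lower than GFP (median 0.666), against 16.8% and 14% of all genes. The purine synthesis genes Ppat (1.86) and Paics (1.18), the deoxycytidine kinase Dck (1.62) and the CTP synthase Ctps (0.67) were higher, while Cad, which starts pyrimidine synthesis (-0.78), and Nme2 (-0.77) were lower. In GFP 3 fell per day (Shmt1, Gart and Cad) and 1 rose: Rrm2b, the p53-inducible ribonucleotide reductase subunit, at 3.44, 9.96, 16.5 and 25.3 CPM (0.46, SE 0.12, adjusted p = 0.0489). This is the opposite direction to Rrm2. The call lies near the threshold, with 27 expected counts on GFP day 1. Its dependence on that library and on GC content was not tested.

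Among 29 genes of E2F and G1/S control OSK had 8 higher and 3 lower than GFP (median 0.694), against 16.8% and 14% of all genes, so the number lower is not above the background. The 3 lower ones are known cell cycle inhibitors: Cdkn1c (-3.60, SE 0.52, adjusted p = 0.00723), Cdkn2b (-2.78) and Cdkn2a (-1.85). The other such inhibitors on the list, Cdkn1a, Cdkn1b, Cdkn2c and Cdkn2d, were not called lower. Cdkn1c stood at 10.8, 5.56, 6.99 and 8.61 CPM in OSK, against 41.5, 169, 119 and 93.7 CPM in GFP, with no overlap on these days. Cdkn2a, whose products include p16 and p19Arf, stood at 9.31, 9.75, 18.5 and 32.5 CPM in OSK, against 24.7, 52.6, 68.0 and 108 CPM in GFP, so it was below GFP on each of these days. The higher ones included the E2F partner Tfdp2 (2.52), the E2F-binding repressor Rb1 (2.40) and Fbxw7 (1.27), which marks cyclin E for destruction. In GFP 4 fell per day (E2f7, the S phase cyclin Ccna2, E2f6 and Cdk2) and none rose, against 2.73% and 2.07% of all genes.

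Stem cells and fibroblasts were measured in the authors' deposited table of scores, in which every column shares 1 median (374) and 1 maximum (58542). mESC and MEF were processed with another version of RSEM and another build than the time courses, so levels across them are a description. The score was higher in mESC than in MEF for 38 of 39 members, with a median ratio of 4.36 and ratios from 0.66 (Gins3) to 9.39 (Orc1). Mcm2 scored 6536 in mESC against 1042 in MEF, Mcm5 5314 against 716, Pcna 4088 against 608 and Rrm1 2776 against 2134. Gins3, the exception, scored 150 in mESC against 228 in MEF. OSK day 7 lay above mESC in 5 genes (Gins3, Rrm1, Tk1, Ccne2 and E2f1) and below it in 34, with a median ratio of 0.55. OvSvK day 4 lay above mESC only in Rrm1, with a median ratio of 0.60. GFP day 7 lay below MEF in 33 members, with a median ratio of 0.60 and the lowest, 0.19, in Mcm5.

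**Figure D5:**
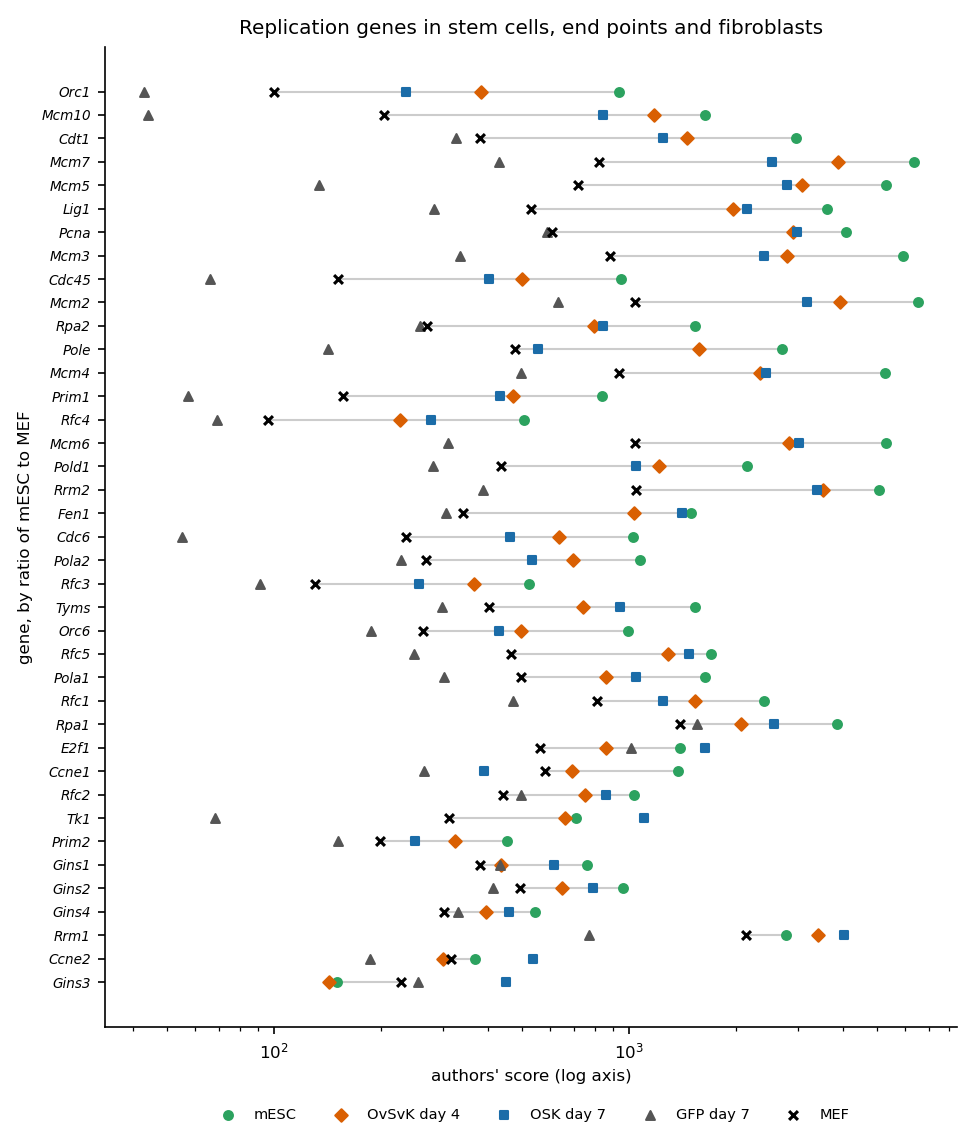
The authors' score (x axis, log scale) of each of the 39 genes (y axis, ordered by the ratio of mESC to MEF) in mESC, OvSvK day 4, OSK day 7, GFP day 7 and MEF, 1 library each, with grey lines joining mESC and MEF. The mESC point lies right of the MEF point in all genes but Gins3, and GFP day 7 lies left of MEF in 33.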

How the data were processed

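Expression was measured by RNA sequencing in 22 samples. For 20 of them the authors deposited expected counts and TPM for 24130 genes, estimated with RSEM 1.2.4 on mm10 per the submitters' processing notes. The table of scores holds 12897 genes in 22 columns, made by the authors, with RSEM 1.1.21 and mm9 for mESC and MEF. Library preparation was TruSeq per the labels' protocols; the sources used here give neither aligner nor strandedness.

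Expected counts were rounded and fitted with edgeR 4.0.16 in R 4.3.3 (TMM scaling, filterByExpr by arm, robust quasi-likelihood tests), with p-values adjusted by Benjamini-Hochberg over all genes at 0.05. Models were OSK against GFP with day as a block (8 libraries), lines per arm over days (14 libraries), OvSvK against OSK with day as a block (6 libraries), and OSK and its omissions with day as a block (8 libraries), with 3, 8, 2 and 3 residual degrees of freedom. The code was tested on simulated data. Pairs of libraries on single days have no test: after adding a prior count of 2, differences past 2-fold were counted over genes with at least 5 CPM in either library. DESeq2 1.42.0 and limma 3.58.1 on log2(TPM + 1) or log2(score + 1) were alternatives. Intervals at 95% are Wilson intervals for shares and Poisson intervals for CPM. Python 3.11.15 with pandas 2.3.3 made tables, and matplotlib 3.10.9 figures.

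The 39 genes, the lists of neighbouring functions and the tests were chosen with earlier results of these data known. All 39 genes were accounted for, and genes of other lists were named by the 6 smallest p in OSK against GFP and in the GFP slope; genes picked out within the 39 and the days shown were chosen after their values were seen.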

Additional observations from a re-analysis of the deposited data

Results flagged for a closer look

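Changes per day differed between arms by the test of the difference itself, with lines that cover unlike days in the arms. The number of replication genes whose slope differed between OSK and GFP was 18. Between OvSvK and GFP it was 17, and all had the higher slope in the factor arm. Of all 13848 genes tested, 2.85% and 3.39% had a higher slope in these comparisons. Without GFP day 1 no member was called in either, and without GFP day 7 none in OSK against GFP. Both comparisons crossed the library sets. In log2 per day, OSK minus GFP, the differences in the helicase and licensing genes were 0.74 for Mcm10, 0.72 for Mcm5, 0.64 for Cdc6, 0.59 for Orc1, 0.54 for Mcm3, 0.50 for Mcm6, 0.48 for Cdc45, 0.43 for Cdt1 and 0.41 for Mcm2. In the polymerases, clamp loader and strand joining they were 0.64 for Prim1, 0.46 for Lig1, 0.44 for Rfc4, 0.44 for Fen1, 0.42 for Rfc5 and 0.42 for Pole. In deoxynucleotide supply they were 0.52 for Tk1, 0.50 for Rrm2 and 0.34 for Rrm1. The GC contents of the 18 genes ran from 44.4% to 58.8%, with a median of 49.5%, against 48.7% in the 21 others. No group had enough libraries for a search for single outlying samples.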

How the results depend on the processing

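Alternatives chosen after seeing the data were leaving out OSK day 0 and GFP day 1 together, removing the GC trend without OSK day 0 or without day 1, leaving out single libraries in the omission model, and several single-day pairs. In OSK against GFP (10 called) the count was 23 with DESeq2, 16 with limma on TPM, 3 with the GC trend removed, 5 in the series table and 28 with the GC trend removed without day 1. Over slopes without OSK day 0 and GFP day 1 it was 0 in GFP, 2 in OSK, 7 in OvSvK, 0 for OSK minus GFP and 8 for OvSvK minus GFP. The OSK slope gave 3 on days 1 to 7 only and 2 with the GC trend removed without OSK day 0. The OvSvK slope gave 6 with DESeq2, 8 with TPM, 5 with the GC trend removed and 5 with that and no OSK day 0. OvSvK against OSK gave 3 with DESeq2 and 3 without a filter on low counts. Omission of vitamin C against OSK gave 1 with DESeq2 and 1 without the filter. Omission of bFGF against OSK gave 3 with TPM and 2 with the GC trend removed, and of GSK3 inhibitors 5 with the GC trend removed. Omission of bFGF against that of vitamin C gave 3 with DESeq2, 2 without the filter and 0 with the GC trend removed. Single genes kept direction and side in 2388 cases, lost the call in 446, gained it in 127 and reversed in 2, both the OSK slope of Pcna, which was -0.13 with the GC trend removed and -0.0435 with that and no OSK day 0. The cause was not tested. Shares of all genes called under each alternative, or with 1 library left out, are not given beside these counts of members. The counts describe dependence on the processing only.

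With 1 library or day left out, counts ranged from 1 to 28 in OSK against GFP, 0 to 30 in the GFP slope, 1 to 10 in the OSK slope, 0 to 5 in the OvSvK slope, 0 to 21 for OSK minus GFP, 0 to 20 for OvSvK minus GFP, 0 to 3 in OvSvK against OSK, 0 to 11, 0 to 6 and 0 to 16 for omission of bFGF, vitamin C and GSK3 inhibitors, 1 to 4 for GSK3 inhibitors against vitamin C, 0 to 3 for bFGF against vitamin C, and 0 for bFGF against GSK3 inhibitors. A library left alone in its arm is assumed to vary like the others. Leaving a whole day out of the omission model was not run, since no residual degrees of freedom remain. No paired analysis was possible because every group is 1 library, so replicate numbers pair nothing; matched days were used as a block in all fits other than the lines over days. On the TPM scale the median of all genes shifts to 0.219 in OSK against GFP and 0.192 in OvSvK against OSK. Some members had low counts in single libraries, where counting error is larger. The lowest count of a member in any library was 23 (Ccne2, OSK day 0). Cdc6 and Mcm10 were lowest on GFP day 7, at 27 and 30 expected counts.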
